A study of Mus musculus with 12 samples.

Results

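The 42 genes described here are targets of the transcription factor NRF2 together with the enzymes that make, recycle and use glutathione. They were taken by name: the NRF2 gene Nfe2l2 and its inhibitor Keap1, 4 quinone, heme and stress enzymes, 5 genes of glutathione synthesis and recycling, 4 of NADPH supply, 5 other detoxifying enzymes, 3 export pumps and 19 glutathione transferases. Of these, 41 had a probe set annotated to that gene alone, out of 13710 such genes on the array, and the probe set with the highest mean signal in the tissue stood for each. G6pdx had no probe set of its own in the annotation used. Values were listed for 39 members in liver and 38 in lung, and 37 could be tested in each tissue.

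The mice were wild-type males on an FVB/N background, given selenium-deficient torula yeast diets from weaning at 3 weeks of age. Both diets shared this base and differed in the selenium added as sodium selenite, 0 ppm (0 Se) or 0.1 ppm (0.1 Se), for 6 weeks. Total RNA of whole liver and whole lung was hybridized to Affymetrix mouse whole-genome arrays of the 3′ expression type, 3 arrays from 3 RNA samples per diet and tissue (12 arrays). The labels do not say whether a liver and a lung came from the same mouse.

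NRF2 is held in the cytoplasm by KEAP1, which marks it for degradation. When electrophiles or oxidants modify KEAP1, NRF2 reaches the nucleus, pairs with small MAF proteins at antioxidant response elements and raises transcription of detoxifying and antioxidant genes. Glutathione is made from glutamate, cysteine and glycine, is joined to electrophiles by glutathione transferases, and is kept reduced by glutathione reductase at the cost of NADPH. Selenium enters the same system through the glutathione peroxidases and thioredoxin reductases, and liver is the main organ that makes and exports glutathione.

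Neither diet comparison gave a member past the test, whereas most members were higher in liver than in lung. By limma's moderated test with Benjamini-Hochberg adjustment over all probe sets, 0 of 37 members passed in liver and 0 of 37 in lung (adjusted p under 0.05). Over all probe sets 0.0121% passed in liver and 0.0924% in lung. The 95% intervals of the log2 difference (0.1 Se minus 0 Se) stayed within a 2-fold change for 37 of 37 members in liver and for 36 of 37 in lung, the exception being Mgst2, a microsomal transferase. At 1.5-fold, the interval of 8 of 37 members reached that size in each tissue (Nqo1, Hmox1, Pgd, Cbr1, Abcc2, Gsta2, Gstm3 and Mgst3 in liver, and Hmox1, Osgin1, Gsta2, Gsta4, Gstm4, Gstt3, Gstz1 and Mgst2 in lung), so that differences of 1.5-fold are not excluded for these. All these intervals are of the probe set that stood for each gene, and other probe sets of some genes reached further. A dimmer Gstm1 probe set in liver had an interval of -1.05 to -0.38, past 2-fold. Other probe sets of Keap1 (-0.72 to 0.05), Srxn1 (-0.68 to 0.44) and Gclc (-0.59 to -0.05) in liver reached 1.5-fold. In lung those of Gsta3 (0.09 to 0.69) and Gstm1 (-0.73 to 0.10 and -0.54 to 0.70) did too. In contrast, 29 of 34 members that could be compared were higher in liver than in lung and 2 were higher in lung. Over all genes 36.2% were higher in liver and 47.1% in lung, so the members differ from the background in direction.

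The arrays carried the markers of the labelled tissues. The 10 hepatocyte markers had values on all liver arrays, and 9 of them were on no lung array. The 7 club cell markers and the 7 alveolar type 1 markers were listed on every lung array, while the ciliated cell and heart muscle markers were on no liver array. Listed probe sets numbered 17235 to 17923 per liver array and 22197 to 22718 per lung array. As a sign of the diet itself, 4 selenium-responsive selenoproteins (Selenow, Gpx1, Selenoh and Selenok, picked by the study in mice on these diets and so no independent evidence) had a median difference of 0.96 in liver and 0.45 in lung. By the same limma test 1 of these 4 was called higher in liver and 0 in lung. Their arrays did not overlap between the diets for 4 of 4 in liver and 3 of 4 in lung. In whole tissue, fewer cells of a type and less RNA per cell cannot be told apart.

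Because NRF2 acts through antioxidant response elements, the RefSeq promoter windows (GRCm38.p6, 250 bases before to 50 after the start site) were searched on both strands for TGACNNNGC, the core of the antioxidant response element. It stood in 11 of the 36 members with a window (30.6%) and in 14.0% of all 27025 genes with one. A match is a description of the letters and not a site of binding. Of the 16 members with a window whose values by array are given below for a diet comparison, 6 held it. The core also stood in Abcc4, G6pdx, Gsta3, Gstm5 and Mgst1, whose matches are not shown. The bases around each match in the 6 are given on the gene's own strand, with the core in capitals (GCNNNGTCA where it lies on the opposite strand).
Nfe2l2 (chr2:75704885-75704913, minus strand): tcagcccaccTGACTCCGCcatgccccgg
Gclm (chr3:122245413-122245441, plus strand): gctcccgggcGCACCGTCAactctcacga
Srxn1 (chr2:152105542-152105570, plus strand): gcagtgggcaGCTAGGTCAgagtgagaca
Pgd (chr4:149166061-149166089, minus strand): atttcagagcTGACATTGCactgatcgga
Ugdh (chr5:65435956-65435984, minus strand): gcggagcccgTGACTTAGCtggagctgat
Ugdh (chr5:65435918-65435946, minus strand): tcctcaagggGCGTGGTCAtacagttcgg
Abcc2 (chr19:43782200-43782228, plus strand): ctcactgggaTGACATAGCattcatctag

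Each of these 6 genes is described by its values below, and the match in Srxn1 and that in Pgd lie just after the start site rather than before it. The classical targets Nqo1 and Gstm1 had a window without the core, and Gclc, Gsr and Hmox1 had no window in the table used.

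In liver the members had no common direction between the diets. The median difference of the 37 members was -0.06 on the log2 scale, against 0.00 over 8965 genes, with 21 members below 0 and 16 above. At an unadjusted p under 0.05 there were 2 members lower in 0.1 Se liver (Gsta2 and Aox1), where 3.22% of all genes were, and 1 higher (Cbr1), where 3.29% were. The arrays of the 2 diets did not overlap for 3 members, Gsta2, Aox1 and Gsr, all lower in 0.1 Se. Over all genes 6.43% were lower and 5.29% higher without overlap, and the members' 3 of 37 lay near that background. The methods' t-test also called 0 members after adjustment, with 1 lower and 0 higher at its unadjusted p under 0.05.

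**Figure D1:**
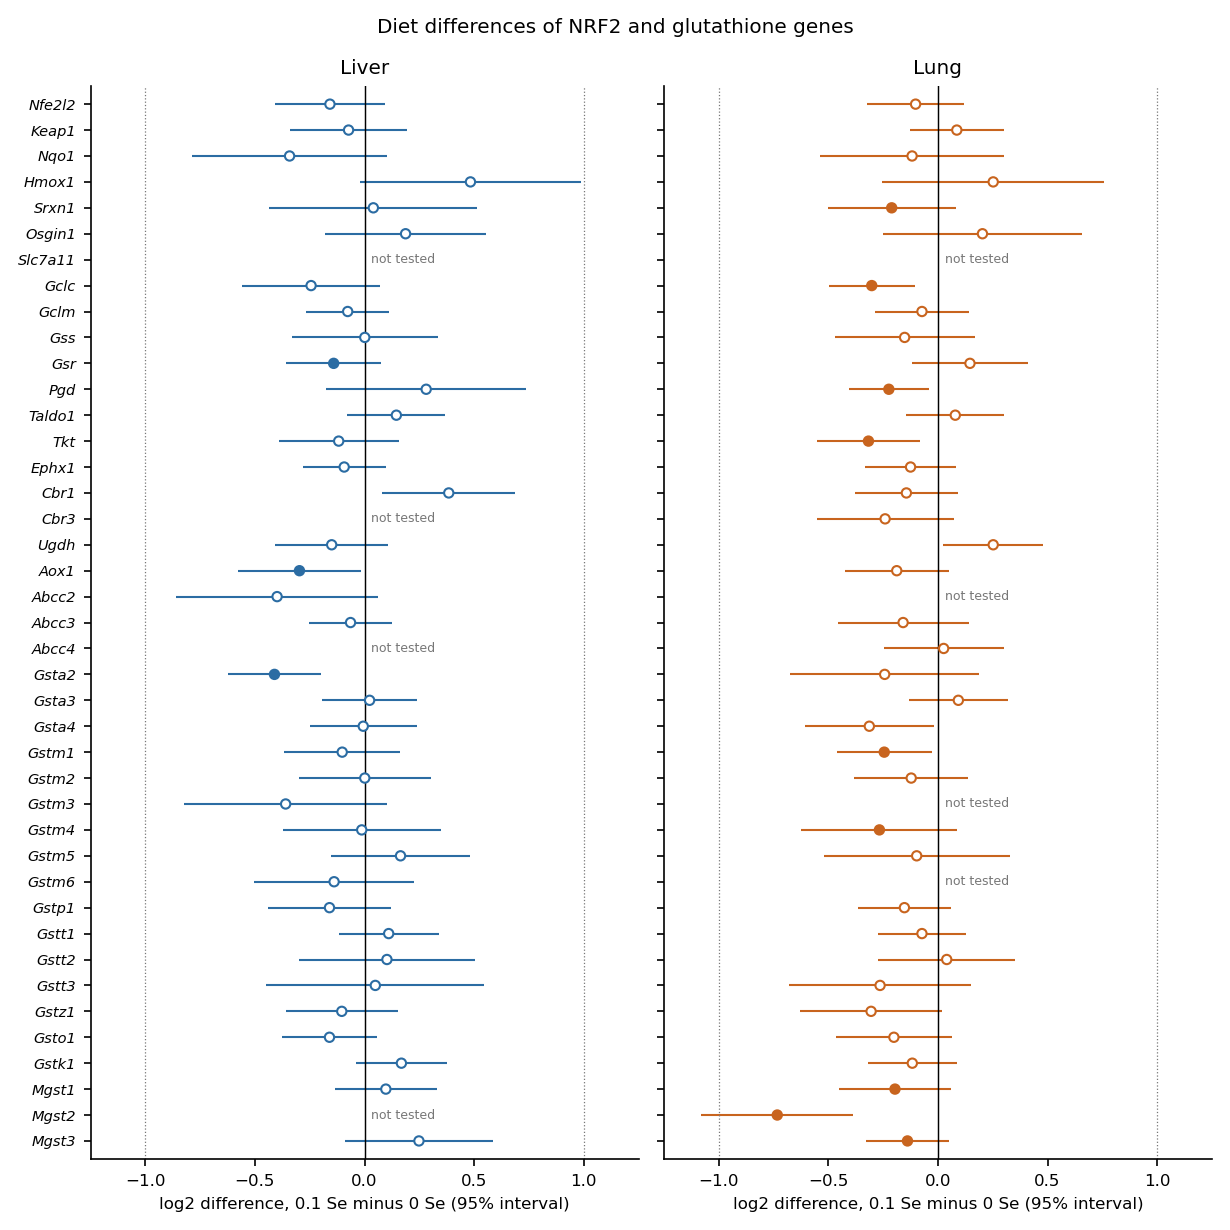
Difference between diets for each member in liver (left) and lung (right). Points are log2 differences, 0.1 Se minus 0 Se, and lines their 95% intervals (n = 3 arrays per diet). Filled points mark members whose diets did not overlap, 3 in liver and 9 in lung, and dotted lines a 2-fold change. Only the Mgst2 interval in lung crosses a dotted line.

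The sensor pair did not pass in liver. Nfe2l2 mRNA had log2 signals of 12.12, 11.86 and 11.86 on the 0 Se arrays and 11.78, 11.94 and 11.64 on the 0.1 Se arrays. The diets overlapped and differed by -0.16 ± 0.11 (SE; limma adjusted p = 0.852), or by -0.07 without 0 Se replicate 1 and -0.08 without 0.1 Se replicate 3. Keap1 gave 10.45, 10.31 and 10.27 in 0 Se and 10.12, 10.39 and 10.30 in 0.1 Se liver, a difference of -0.07 ± 0.12 (adjusted p = 0.938). A dimmer Keap1 probe set was lower on the 3 arrays of 0.1 Se liver, by 0.33 on the log2 scale (8.05 to 7.72), and did not pass either (limma adjusted p = 0.798).

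The quinone, heme and stress enzymes had no common direction in liver. Nqo1, the quinone reductase most often read as an NRF2 target, stood at 7.84, 7.49 and 8.11 in 0 Se and at 7.49, 7.44 and 7.48 in 0.1 Se liver. The lowest 0 Se array lay among the 0.1 Se arrays, and the difference was -0.34 ± 0.20 (adjusted p = 0.824), or -0.19 without 0 Se replicate 3. Hmox1, heme oxygenase 1, gave 7.46, 7.35 and 7.72 in 0 Se and 7.70, 7.84 and 8.44 in 0.1 Se liver. Its difference of 0.48 ± 0.23 was the largest upward value of the members in liver (95% interval -0.02 to 0.99, adjusted p = 0.765), and without 0.1 Se liver replicate 3 it was 0.26. Hmox1 is also expressed by Kupffer cells, the resident macrophages of liver, and 10 of 10 macrophage and Kupffer cell markers were above 0 in the same comparison, with a median of 0.40, 0 called and 6 without overlap. Their summed signal ranged from 18500 to 24400 on the 0 Se arrays and from 26100 to 32400 on the 0.1 Se arrays, with every marker listed on every liver array. Their part in the Hmox1 value was not tested. Srxn1, sulfiredoxin, which restores overoxidized peroxiredoxins, gave 9.65, 9.34 and 9.68 against 9.14, 10.04 and 9.62, a difference of 0.04 ± 0.21. Osgin1, a growth inhibitor induced by oxidative stress, ranged from 10.77 to 11.47 in 0 Se and from 11.28 to 11.51 in 0.1 Se liver and differed by 0.19 ± 0.17 (adjusted p = 0.875).

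Of the genes of glutathione synthesis, Gclc and Gclm had high signals in liver, and no gene of the group that was tested passed between the diets. Gss, glutathione synthetase, had a lower signal (mean 10.70 in 0 Se liver) and differed by 0.00 ± 0.15. For Gclc, the catalytic subunit of the rate-limiting enzyme glutamate-cysteine ligase, the arrays read 13.60, 13.71 and 13.37 in 0 Se and 13.11, 13.64 and 13.22 in 0.1 Se liver. The overlapping values differed by -0.24 ± 0.14 (limma adjusted p = 0.824), by -0.14 without 0.1 Se liver replicate 1 and by -0.40 without 0.1 Se liver replicate 2. A second Gclc probe set gave -0.32 ± 0.12 (limma adjusted p = 0.684). Gclm, the modifier subunit, read 13.39, 13.51 and 13.55 in 0 Se and 13.34, 13.41 and 13.46 in 0.1 Se liver. Its interval, -0.27 to 0.11, was one of the 3 narrowest among the members. A second, dimmer Gclm probe set was lower in 0.1 Se liver without overlap, by -0.17 ± 0.08 (adjusted p = 0.766). Gsr, glutathione reductase, read 11.10, 11.11 and 11.11 in 0 Se and 10.90, 11.08 and 10.92 in 0.1 Se liver. The diets stood apart by a narrow gap, and the difference of -0.14 ± 0.10 did not pass (adjusted p = 0.847). A second Gsr probe set gave -0.26 ± 0.14 with overlapping arrays (adjusted p = 0.797). Slc7a11, which imports cystine, was listed on 1 of 12 arrays, at 6.93 on 0.1 Se liver replicate 3.

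Among the other enzymes of liver the largest values pointed both ways. Gsta2, an alpha class transferase, read 12.71, 12.91 and 12.82 in 0 Se and 12.49, 12.44 and 12.28 in 0.1 Se liver. Each 0.1 Se array lay below each 0 Se array, and the difference of -0.41 ± 0.10 was 75.2% of the 0 Se signal (limma adjusted p = 0.464). Its probe set may also bind the near-identical Gsta1 transcript. Aox1, an aldehyde oxidase, read 12.120, 12.430 and 12.088 against 12.003, 12.043 and 11.701, without overlap, and differed by -0.30 ± 0.13 (adjusted p = 0.733). Leaving out 0 Se replicate 2 gave -0.19, as did leaving out 0.1 Se replicate 3. Cbr1, a carbonyl reductase, ran the other way, at 11.54, 11.21 and 11.32 in 0 Se and 11.77, 11.48 and 11.97 in 0.1 Se liver, with a difference of 0.38 ± 0.14 (adjusted p = 0.664). Abcc2, the pump that moves glutathione conjugates into bile, read 11.27, 11.94 and 11.51 in 0 Se and 11.55, 10.76 and 11.22 in 0.1 Se liver. It differed by -0.40 ± 0.21 (adjusted p = 0.797), which became -0.21 when 0 Se replicate 2 was left out and -0.19 when 0.1 Se replicate 2 was.

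The 18 transferases tested in liver were evenly split, with 9 below 0, 9 above and a median of 0.00. Gstp1, the pi class enzyme and a very bright probe set in liver, read 15.16, 15.36 and 15.49 in 0 Se and 14.93, 15.36 and 15.24 in 0.1 Se liver, a difference of -0.16 ± 0.13 that was -0.04 without 0.1 Se replicate 1 and -0.25 without 0.1 Se replicate 2. For Gstm1, the main mu class enzyme, the brightest probe set, ending in _x_at, read 14.26, 14.50 and 14.57 in 0 Se and 14.12, 14.48 and 14.44 in 0.1 Se liver. Those values overlapped (-0.10 ± 0.12, limma adjusted p = 0.906). The probe sets of Gstm1 did not give the same value, however. Another one, also ending in _x_at, read 12.46, 12.51 and 12.39 in 0 Se and 11.59, 12.14 and 11.50 in 0.1 Se liver, lower without overlap by 0.71 on the log2 scale (limma adjusted p = 0.416). The dimmest, a plain _at probe set, differed by -0.56 ± 0.18, also without overlap (adjusted p = 0.613), and the other plain one by -0.16 ± 0.13 with overlap. These 2 were picked out after their values were seen, and the mu class genes are close enough in sequence for probe sets ending in _x_at to bind more than 1 of them, which holds for the brightest probe set as well.

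In lung more members were lower in 0.1 Se. The median of the 37 members was -0.14, against -0.02 over 10899 genes, and 28 were below 0 and 9 above. At an unadjusted p under 0.05 there were 6 lower (Mgst2, Gclc, Tkt, Pgd, Gstm1 and Gsta4), or 6 of 37 against 5.01% of all genes, and 1 higher (Ugdh), against 3.5%. The diets did not overlap for 9 members lower in 0.1 Se, against 8.03% of all genes with values on each array, and for 0 members higher, against 5.77%. The smallest adjusted p was 0.196, so 0 of these passed, and the methods' t-test with the same adjustment also called 0 (5 members lower and 0 higher at its unadjusted p under 0.05).

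A single array weighed on that median. The members' median against the 0 Se mean was -0.05 on 0.1 Se lung replicate 1, -0.25 on replicate 2 and -0.10 on replicate 3. Replicate 2 held the lowest of the 3 values for 24 of 37 members, against 3620 of 10358 genes. Without 0.1 Se lung replicate 2 the members' median was -0.08, with 27 below 0. Markers of some other cell types also moved between the diets of lung. The 8 ciliated cell markers tested were all below 0 in 0.1 Se lung (median -0.75, 4 without overlap, 0 called), and their medians on the 3 arrays were -0.23, -1.24 and -0.71, again lowest on replicate 2. Their summed signal ranged from 8480 to 10300 in 0 Se and from 3630 to 8010 in 0.1 Se lung. The 7 club cell markers were all below 0 too (median -0.41, summed signal 163000 to 226000 against 121000 to 183000), with medians of -0.59, -0.28 and -0.37 on the 3 arrays, lowest on replicate 1. Among them, Scgb3a1 read 12.18, 13.22 and 12.91 in 0 Se and 12.05, 6.74 and 10.36 in 0.1 Se lung, where replicate 2 lay close to the lower limit of the table. Club cells of the airway are known as a site of detoxification in lung, and the part of these cells in the lung values was not tested. Heart muscle markers were below 0 for 5 of 5 (median -0.70, summed signal 3700 to 29500 against 4080 to 17100), and neutrophil markers above 0 for 3 of 4 (median 1.36, 1350 to 3390 against 4280 to 17100). Alveolar type 1 (median 0.01) and endothelial markers (-0.03) lay near 0 in lung. Alveolar type 2 markers had a median of -0.18, and macrophage markers one of 0.25, with 6 of 6 above 0. None of these markers was called, and their part in the members' values was not tested either.

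Glutathione synthesis in lung was read mainly through Gclc. Its arrays gave 12.23, 12.06 and 12.25 in 0 Se and 11.92, 11.92 and 11.78 in 0.1 Se lung. The diets did not overlap, and the difference was -0.30 ± 0.09 (95% interval -0.50 to -0.11, limma adjusted p = 0.401). The second Gclc probe set gave -0.37 ± 0.08, also without overlap (adjusted p = 0.218). Gclm, its partner subunit, read 10.52, 10.64 and 10.78 in 0 Se and 10.60, 10.48 and 10.63 in 0.1 Se lung, a difference of -0.07 ± 0.10 with overlapping arrays. Its second probe set gave -0.19 ± 0.15, also with overlap (adjusted p = 0.831), and Gclc and Gclm were not tested against each other. Gsr read 10.31, 10.28 and 9.92 against 10.44, 10.26 and 10.25, or 0.15 ± 0.12, which was 0.02 without 0 Se replicate 3.

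NADPH supply was represented by pentose phosphate enzymes. Tkt, transketolase, read 13.48, 13.61 and 13.64 in 0 Se and 13.13, 13.23 and 13.43 in 0.1 Se lung, apart by -0.32 ± 0.11 (adjusted p = 0.466). Its second probe set, a plain _at one, gave -0.19 ± 0.13 with overlapping arrays (adjusted p = 0.805). Pgd, 6-phosphogluconate dehydrogenase, read 11.55, 11.44 and 11.53 in 0 Se and 11.36, 11.29 and 11.20 in 0.1 Se lung, apart by -0.22 ± 0.08 (adjusted p = 0.536). The brightest probe sets of both genes end in _x_at and are less certain to read 1 gene. Of the other 3 Pgd probe sets 2 were below 0 (-0.26 and -0.29) and 1 above (0.08). In liver 4 of 4 Pgd probe sets were above 0, from 0.28 to 0.38, with 0 called. Taldo1, transaldolase, gave 0.08 ± 0.10.

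Among the sensors and stress enzymes of lung, Srxn1 stood apart between the diets and the others overlapped. Nfe2l2 read 12.47, 12.57 and 12.77 in 0 Se and 12.40, 12.54 and 12.56 in 0.1 Se lung, a difference of -0.10 ± 0.10. Keap1 read 9.80, 9.72 and 9.87 against 9.87, 9.92 and 9.86, a difference of 0.09 ± 0.10. Nqo1 read 7.57, 7.84 and 7.52 against 7.82, 7.22 and 7.54, a difference of -0.12 ± 0.19. All 3 overlapped between the diets, with adjusted p from 0.872 to 0.924, and without single arrays Nfe2l2 ran from -0.17 to -0.02 and Nqo1 from -0.27 to 0.04. Hmox1 read 7.58, 6.79 and 6.90 in 0 Se and 7.06, 7.44 and 7.54 in 0.1 Se lung, close to the lower limit of the table, and its 0.25 ± 0.23 ranged from 0.10 to 0.50 when single arrays were left out. Osgin1 ranged from 7.71 to 8.38 in 0 Se and from 7.94 to 8.27 in 0.1 Se lung, a difference of 0.20 ± 0.20. Srxn1 read 8.60, 8.77 and 8.80 in 0 Se against 8.52, 8.52 and 8.51 in 0.1 Se lung, apart without overlap by -0.21 ± 0.13 (adjusted p = 0.782). Ugdh, which makes the UDP-glucuronic acid used in glucuronidation, was the 1 member above 0 at an unadjusted p under 0.05, at 11.04, 10.85 and 10.73 in 0 Se and 11.25, 11.02 and 11.11 in 0.1 Se lung. Its arrays overlapped and differed by 0.25 ± 0.10 (adjusted p = 0.594).

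**Figure D2:**
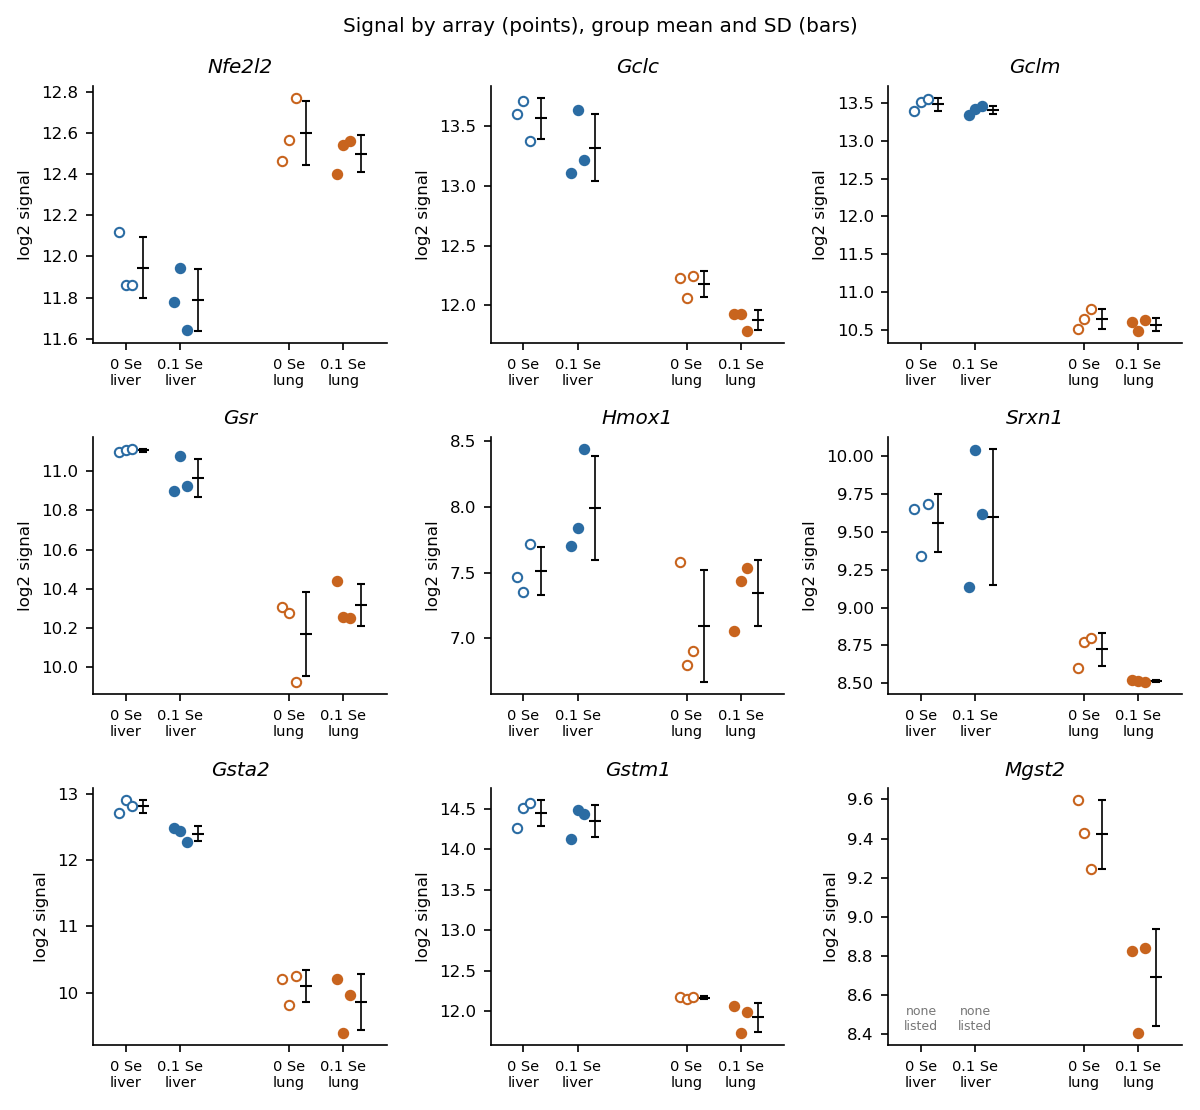
Log2 signal on each array for 9 members, by diet and tissue. Open points are 0 Se and filled points 0.1 Se, and bars show the group mean and SD (n = 3). The tissues stand further apart than the diets for Gclc, Gclm, Gsta2 and Gstm1, while Nfe2l2 is higher in lung and Mgst2 has no listed liver value.

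Of the 17 glutathione transferases tested in lung, 15 were below 0, with a median of -0.20, where 5954 of 10899 genes were below 0. Lower in 0.1 Se without overlap were 5 of them (Gstm1, Gstm4, Mgst1, Mgst2 and Mgst3), against 8.03% of all genes. On 0.1 Se lung replicate 2 the median of the 17 against the 0 Se mean was -0.31, against -0.06 and -0.10 on replicates 1 and 3. Of the 17, 14 were lowest on replicate 2, against 3620 of 10358 genes. Mgst2, a membrane enzyme that can also make leukotriene C4, gave the largest difference of any member, with 9.59, 9.43 and 9.24 in 0 Se and 8.83, 8.40 and 8.84 in 0.1 Se lung. All 3 arrays of 0.1 Se lung lay below those of 0 Se, and the difference of -0.73 ± 0.16 was 60.2% of the 0 Se signal (95% interval -1.08 to -0.39, limma adjusted p = 0.196). Under the other settings tried, the adjusted p for Mgst2 lay between 0.117 and 0.653. Gstm1 read 12.18, 12.15 and 12.17 in 0 Se and 12.06, 11.72 and 11.98 in 0.1 Se lung, apart by -0.25 ± 0.10 (adjusted p = 0.581) and by -0.15 without 0.1 Se lung replicate 2. Its other probe sets all overlapped between the diets of lung, at -0.175 ± 0.14, -0.32 ± 0.19 and, for the dimmest, 0.08 ± 0.28. Gsta4, which detoxifies the lipid peroxidation product 4-hydroxynonenal, read 12.01, 11.90 and 11.98 against 11.90, 11.31 and 11.74. Its -0.31 ± 0.13 (adjusted p = 0.619) became -0.14 without 0.1 Se lung replicate 2. Gstz1, the zeta class enzyme of tyrosine breakdown, read 9.35, 9.40 and 9.15 against 9.26, 8.81 and 8.91, with a difference of -0.30 ± 0.15 (adjusted p = 0.688). Gstp1 read 13.06, 12.93 and 13.09 against 12.89, 12.74 and 12.98, with overlapping arrays and a difference of -0.15 ± 0.10 that was -0.09 without 0.1 Se replicate 2. Gsta3 ran the other way, at 0.09 ± 0.10 on its brightest probe set and 0.39 ± 0.14 on its second, where the arrays did not overlap (adjusted p = 0.490).

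Other genes of the pathway, 62 taken by name with 49 on a probe set of their own, also gave 0 calls in either tissue. In liver 21 of 42 were below 0 and 21 above, with a median of 0.00. In lung 31 of 46 were below 0, with a median of -0.05. The smallest p in both tissues belonged to Txnrd1, cytosolic thioredoxin reductase, itself a selenoprotein and an NRF2 target. It read 10.57, 10.72 and 10.71 in 0 Se and 11.18, 11.13 and 10.82 in 0.1 Se liver, higher by 0.37 ± 0.12 without overlap (limma adjusted p = 0.616). In lung it read 10.77, 10.64 and 10.68 against 10.48, 10.23 and 10.44, lower by 0.31 on the log2 scale without overlap (adjusted p = 0.439). The difference between these effects, -0.68 ± 0.16, did not pass over all probe sets (adjusted p = 0.536). In liver the next values were -0.25 for Chac2, a glutathione-degrading enzyme, 0.24 for the small MAF gene Mafg and 0.48 for Ptgr1, a prostaglandin reductase. In lung they were -0.36 for Pir, which encodes pirin, -0.51 for Gpx2, the gastrointestinal glutathione peroxidase, and -0.20 for the conjugate pump Abcc1, with adjusted p from 0.466 to 0.709.

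**Figure D3:**
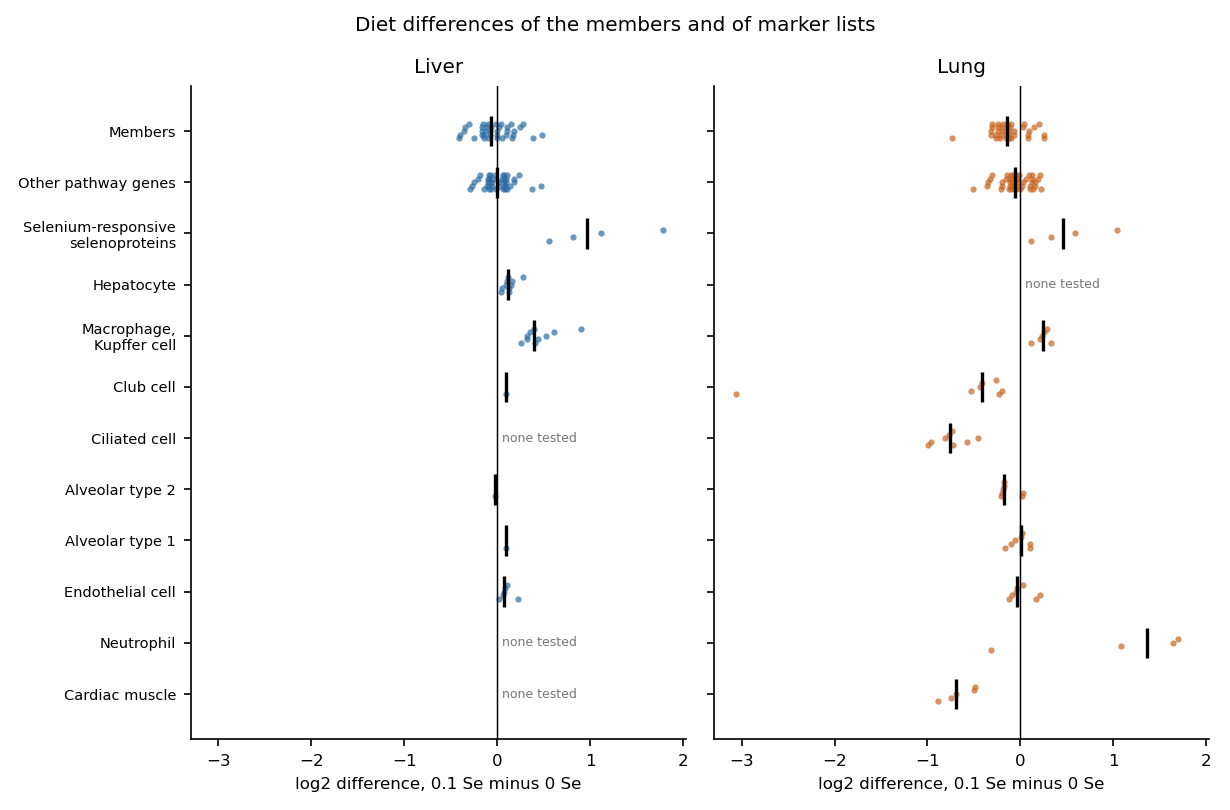
Log2 difference between diets (0.1 Se minus 0 Se) for each tested gene of the members, the other pathway genes, 4 selenoproteins and the marker lists, in liver (left) and lung (right). Points are genes and black bars list medians. Members centre at -0.06 in liver and -0.14 in lung, while ciliated cell markers in lung centre at -0.75 and the selenoproteins at 0.96 and 0.45.

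The 34 members with values in both tissues could be tested for a diet effect that differed between liver and lung (interaction term, 12 arrays). None passed, as for all probe sets (0.0% called by limma), and at an unadjusted p under 0.05 there were 4 of 34 members, against 5.98% of all genes. For Cbr1 the lung difference minus the liver difference was -0.53 ± 0.18 (adjusted p = 0.758), since 0.38 in liver stood against -0.14 in lung. For Ugdh it was 0.40 ± 0.16 (adjusted p = 0.760), with -0.15 in liver and 0.25 in lung. Mgst3, a microsomal transferase, gave -0.39 ± 0.18, and Gstk1, the mitochondrial and peroxisomal kappa class enzyme, gave -0.28 ± 0.13. The median over the 34 members was -0.11, and -0.01 over all genes.

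Most members stood higher in liver than in lung. With both diets averaged, 29 of 34 members passed as higher in liver (limma adjusted p under 0.05), where 36.2% of all genes did, and 2 as higher in lung, where 47.1% did. The median was 1.49 on the log2 scale against -0.15 over 8228 genes. The highest value belonged to Gstz1, which stood at 13.42 to 13.84 on the liver arrays (median 13.78) and at 8.81 to 9.40 on the lung arrays (median 9.21), or 23.7-fold higher in liver (4.56 ± 0.09, adjusted p = 1.28e-15). It was followed by Gstm4 of the mu class at 14.1-fold (3.82 ± 0.11), Osgin1 at 9.45-fold (3.24 ± 0.14), Gstt2 of the theta class at 9.35-fold (3.22 ± 0.12) and Abcc3, a basolateral conjugate pump, at 9.28-fold (3.21 ± 0.08). For each of these 5 genes the liver and lung arrays did not overlap, and the 95% intervals of Osgin1, Gstt2 and Abcc3 overlapped, so that their order is not settled.

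**Figure D4:**
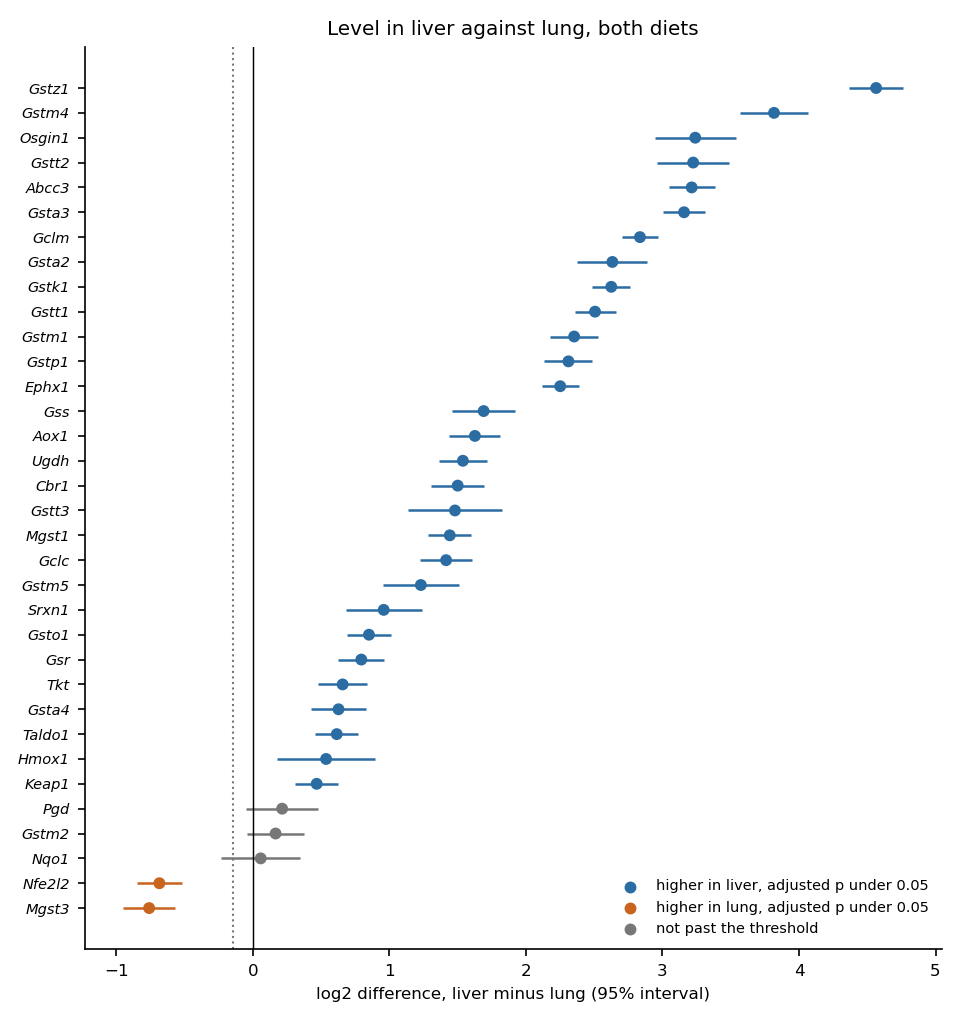
Level in liver against lung for the 34 members with values in both tissues, both diets averaged. Points are log2 differences, liver minus lung, and lines their 95% intervals (n = 6 arrays per tissue). The dotted line is the median over all genes, -0.15. Blue marks 29 members higher in liver, orange 2 higher in lung and grey 3 that did not pass.

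By role, glutathione synthesis and recycling was higher in liver for 4 of 4 genes tested, among them Gclm at 7.13-fold (2.83 ± 0.06) and Gclc at 2.67-fold (1.41 ± 0.09). The alpha class passed for 3 of 3, the pi, theta, zeta, omega and kappa classes for 7 of 7, the mu class for 3 of 4 and the other detoxifying enzymes for 4 of 4. Nfe2l2 itself went against this, at 11.64 to 12.12 in liver (median 11.86) and 12.40 to 12.77 in lung (median 12.55), 1.61-fold higher in lung (-0.68 ± 0.08, adjusted p = 6.57e-07). Keap1 was 1.38-fold higher in liver (0.47 ± 0.07, adjusted p = 2.55e-05). Mgst3 was the other member higher in lung, at 9.61 to 10.26 in liver and 10.62 to 10.89 in lung (-0.76 ± 0.09, adjusted p = 8.97e-07).

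Nqo1, with signals not far above the lower limit of the table in both tissues, did not pass (0.06 ± 0.14). Gstm2 (0.17 ± 0.10) and Pgd (0.21 ± 0.12) did not pass either, and the intervals of these genes reached at most 0.48. These smaller values depended on scaling. The median of all probe sets lay at -0.18 as deposited, at -0.45 after quantile normalization and at 0.02 after median centring of the arrays. With quantile normalization Gsta4 (0.00), Taldo1 (0.04) and Tkt (-0.17) no longer passed, Gstm2 (-0.24) and Pgd (-0.28) passed as higher in lung, and the counts were 26 higher in liver and 4 in lung. With median centring Gstm2 (0.36) and Pgd (0.41) passed as higher in liver, and the counts were 31 and 2. Nfe2l2 and Mgst3 were higher in lung under both scalings.

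Some members were listed in a single tissue, so that no fold is given. Abcc2 (10.76 to 11.94) and Gstm6 (10.48 to 11.07) had values on the 6 liver arrays and on 0 lung arrays. Cbr3, a carbonyl reductase (9.60 to 10.24), and Mgst2 (8.40 to 9.59) had values on the 6 lung arrays and on 0 liver arrays. Gstm3 was listed on 6 liver arrays and on 2 lung arrays, both of 0 Se (7.39 and 7.26), and Abcc4, a pump of the basolateral membrane, on 6 lung arrays and 1 liver array (7.01). Missing values were either absent calls or signals below 100, which cannot be told apart here. Of the other pathway genes, 26 of 39 tested passed as higher in liver and 11 as higher in lung. The carboxylesterase Ces1g (12.50 in liver, 7.86 in lung) and Ptgr1 (8.33 in liver, 11.15 in lung) marked the ends of that range.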

How the data were processed

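The authors computed MAS5 signals per array and left out absent calls, with affy 1.36.0 in R 2.15.2 per the submitters' notes. Log2 signals, none below a signal of 100, are what the authors deposited, and they were used without further scaling. Genes were named from the array annotation and RefSeq, from probe sets of a single gene. The members, lists and tests were chosen with earlier results of these data known.

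A probe set was tested with at least 2 values per group, and blanks stayed missing. Diets within a tissue, their interaction and the tissues were compared with limma 3.58.1 (R 4.3.3; lmFit, eBayes with a trend), with Benjamini-Hochberg adjustment over all probe sets at 0.05, on code tested on simulated data. Values are log2 differences with SE (group SD in the plots). The labels call arrays biological replicates. The number of arrays limits the precision, since an exact test of 3 against 3 cannot go below 0.1. Arrays of the same number were not taken as paired: their deviations from the group means correlated at -0.19 to 0.15 between diets and at -0.04 to 0.11 between liver and lung (0.06 to 0.11 in 0 Se).

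Arrays are shown for 10 fixed members and for members with an unadjusted p under 0.05 or among the 4 largest differences of a tissue, 5 per direction are named for tissue level, and 4 other pathway genes per tissue by smallest p. Alternatives covered filters, scaling, blanks, an added signal of 32, the trend, a block by replicate number, 1 fit of the 12 arrays, the methods' t-test, other probe sets of a gene and the omission of single arrays. Columns without a sample numbered 0.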

Additional observations from a re-analysis of the deposited data

How the results depend on the processing

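None of the members passed a diet or interaction test under any alternative run, and Gstz1, Gstm4, Osgin1, Gstt2, Abcc3, Mgst3 and Nfe2l2 kept direction and call by tissue in each alternative that gave a value, including the fit with the replicate number as a block (replicate block: 0 members called in liver, 0 in lung, 0 in the interaction and 31 by tissue). The block moved the calls over all probe sets from 2 to 0 in liver and from 20 to 54 in lung. Those calls also became 8 in liver and 4 in lung with no filter (44 for the interaction, from 0), 14 in liver with the 12 arrays in 1 fit, 10 in lung after quantile normalization, 8 in lung for signals of at least 8 on the log2 scale, and 0 in both without the trend or by the methods' t-test. Without single arrays they ran from 0 to 9 in liver and from 0 to 75 in lung, with 0 without 0.1 Se lung replicate 2 and 0 without 0 Se lung replicate 2. Lung members lower at an unadjusted p under 0.05 ran from 3, without 0 Se lung replicate 1, to 10, without 0.1 Se lung replicate 1. The members' median in liver was -0.16 on the 11 second brightest probe sets, and their interaction median was 0.005 on those of 10 members. The median by tissue was 1.08 after quantile normalization, 1.69 after median centring and 1.10 on the second brightest probe sets, of which 9 of 10 passed. The second Keap1 probe set gave -0.14 in lung, where the brightest gave 0.09. Leaving out single arrays moved the median between -0.11 and -0.04 in liver, between -0.19 and -0.08 in lung, between -0.14 and -0.05 for the interaction and between 1.46 and 1.55 by tissue. Signs turned without an array for some of the members shown by array, none of which passed between the diets. These were Srxn1 (-0.18 to 0.27), Gstm1 (-0.193 to 0.009) and Keap1 (-0.132 to 0.003) in liver and Nqo1 (-0.265 to 0.036) in lung. The signs of the remaining members were not followed in this way. With 3 arrays a group, smaller differences than the intervals given could not be told from 0.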
